A study of Mus musculus with 15 samples.

Results

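Brain gene expression in mice given MPTP and then a high dose of a Bruton tyrosine kinase (BTK) inhibitor was compared with that in untreated control mice. The comparison was fixed by the sample titles, which give 3 high-dose libraries and 3 control libraries, 6 of the 15 libraries of the series. Read counts per gene symbol had been deposited for every library. The other 9 libraries came from mice given MPTP alone, MPTP and then levodopa, or MPTP and then a low dose of the inhibitor, with 3 libraries each.

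High-dose mice had 7 days of stabilization, 1 week of intraperitoneal MPTP at 20 mg/kg/day and then 4 weeks of the inhibitor, which the protocol gives as an oral 2 µg/kg/day and the sample label as 50 pM. Control mice had the same stabilization and a normal diet, for 5 weeks by the sample label and 6 weeks by the protocol, with no MPTP. Where further groups are used below, low-dose mice received MPTP and then the inhibitor at 1 µg/kg/day, and MPTP mice received MPTP and then a normal diet. The protocol gives 8 mice per group, and the labels give no strain, sex, age, vehicle or brain region. High dose and control therefore differ by MPTP, by the inhibitor and by the handling that goes with both, and these cannot be told apart in this comparison. Whether the 3 libraries of a group are 3 mice is not stated. A p-value here therefore reflects the spread between libraries within groups, part of which may be technical. That spread was estimated over all 5 groups of the series, not over the compared libraries alone.

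BTK is a kinase that relays signals from the B-cell receptor and from Fc and Toll-like receptors, and in the brain it is found mainly in microglia. MPTP is turned in the brain into a toxin that enters dopamine neurons through the dopamine transporter and blocks complex I of their mitochondria. The title of the series names Nurr1, the nuclear receptor encoded by Nr4a2 that dopamine neurons need for their development and upkeep.

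The tissue is labelled brain, and markers of neurons, astrocytes, oligodendrocytes and microglia were all read in every library. The high-dose libraries held 58149722 to 61495406 counted reads and the control libraries 63314658 to 68257095. The deposited tables of the 6 inhibitor libraries carry 24 empty trailing columns, and those of the other 9 libraries carry 51. Control 2 stood apart from the other controls in cerebellar genes. Gabra6, which encodes part of a GABA receptor in granule neurons of the cerebellum, had 0.424, 0 and 0.791 CPM in high-dose libraries 1, 2 and 3, against 0, 648.7 and 1.19 CPM in control libraries 1, 2 and 3 (CPM, reads of a gene scaled to a common library size). The main counts are therefore also given without control 2, as are list counts and medians that it moved most.

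Of 21821 genes tested, 47 were higher and 35 were lower in high-dose than in control libraries at an adjusted p under 0.05 (edgeR's quasi-likelihood test with Benjamini-Hochberg adjustment), 0.215% and 0.16% of the genes tested and 0.376% in both directions together. The genes that were higher included near-identical gene copies on chromosomes 4 and 14, genes of the cytosolic ribosome and other genes, and 28 of the 40 with a known length had transcripts under 2000 bases. By RefSeq type, 4 of the lower and 7 of the higher genes were pseudogenes, and their share over all genes tested was not counted. Of the lower genes, 24 of the 34 with a known length had transcripts of 4000 bases or more. Of the 19008 tested genes with a length, 2086 were under 1000 bases and 3474 from 1000 to below 2000. A further 5209 were from 4000 to below 8000 bases, and 938 had 8000 or more. All 82 genes had groups that did not overlap, which was so for 27.4% of the genes tested. Without control 2, 13 genes were higher and 4 were lower, 0.0582%, 0.0179% and together 0.0761% of 22334 genes tested, and all 17 were among the 82. Without control 2 and the levodopa library that also had high cerebellar markers, 85 genes were higher and 80 were lower, 0.381%, 0.358% and together 0.739% of 22324 genes tested, and 68 of these were among the 82. At an unadjusted p under 0.05, 9.22% of all genes tested were higher and 10.8% were lower, and 6.4% and 5.83% without control 2. DESeq2 called 714 higher and 747 lower of the same 21821 genes. The list counts below are to be read beside these. So are summed list levels that did not overlap, since 27.4% of single genes tested did not overlap either. The share over all lists was not counted.

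The calls depended on which libraries entered the fit. With high-dose library 1, 2 or 3 left out, 13, 14 and 24 genes were higher and 2, 4 and 6 were lower. With control library 1 or 3 left out, 43 and 15 genes were higher and 22 and 4 were lower. A fit of the 6 compared libraries alone called 1 gene higher, the mitochondrial TrnG, and 2 lower, Pisd-ps1 and Pisd-ps2. Calls were kept with each of the 6 libraries left out in turn by 14 genes, and these were Ccl21b, Gm10591, Gm13304, Gm21541, Gm21075, Gm29801, Gm29804, Gm5859, Tmem254a, Tmem254b, Tmem254c, TrnG, Pisd-ps1 and Pisd-ps2. Of the genes named here, those that passed without control 2 were these 14, Neurod6 and Cd59a. Every gene below other than the 14 that passed with all libraries lost its call without at least 1 library. The predicted genes, pseudogenes and mitochondrial genes are named after their values were seen.

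**Figure D1:**
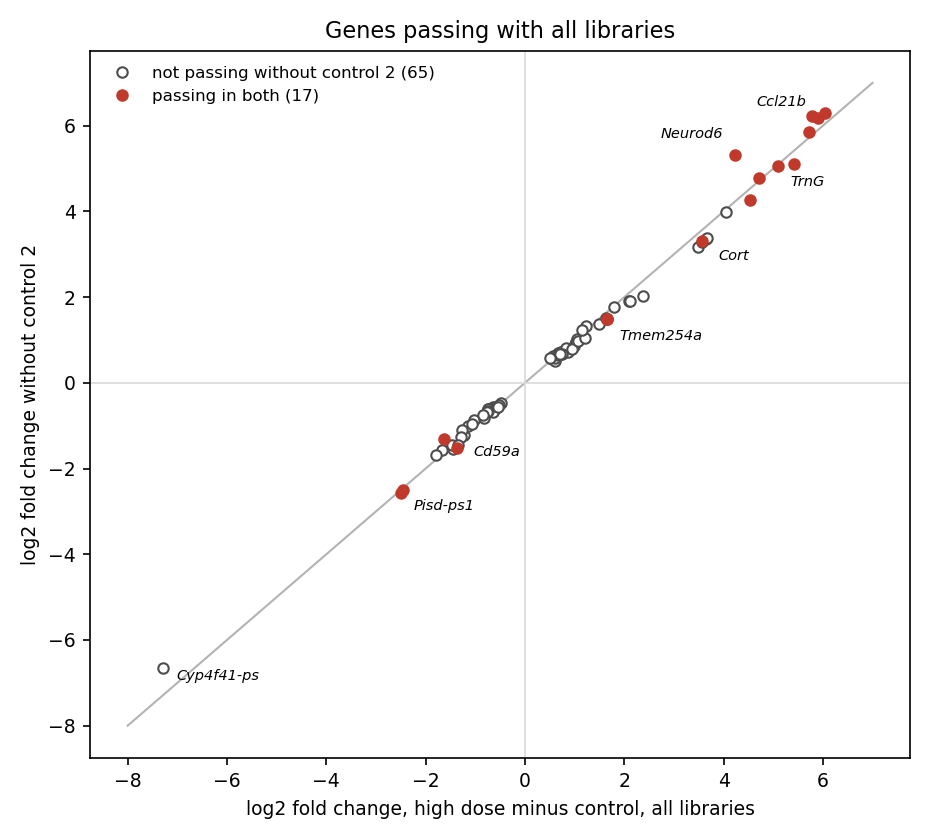
Log2 fold change (high dose minus control) of the 82 genes that passed with all libraries (x axis) against the same fold change without control 2 (y axis). Filled points are the 17 genes that passed in both fits, open points the 65 that did not pass without control 2, and the line marks equal values. All 82 points keep their direction, and the filled ones lie mostly at the ends.

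The same genes were read in the low-dose, MPTP and levodopa libraries. These are not compared in the test above, but they entered its fit and its estimate of the spread. The counts here are therefore not a separate check of the calls, and the shares over all genes are not a matched baseline. Of the 47 genes higher in high dose than in control, 44 were also higher in all 3 low-dose libraries than in all 6 MPTP and levodopa libraries, a pattern that 12.9% of the genes tested showed. The exceptions were TrnA, A330023F24Rik and Gm7832. Of the 35 genes that were lower, 32 were lower in all 3 low-dose libraries than in those 6, a pattern that 10.2% of the genes tested showed, and the exceptions were Klf4, Cyp4f41-ps and Thsd7a. The inhibitor groups share their table layout, so the inhibitor and the handling of its libraries cannot be told apart here either.

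Among the genes that passed, the largest rises stood in a cluster of gene copies on mouse chromosome 4, in a window chosen after the values were seen, whose tested genes lie at chr4:41805506-42613253 of GRCm38. It holds copies of Ccl21, a chemokine that draws lymphocytes and dendritic cells through the receptor CCR7, along with predicted genes. Of 26 genes tested there, 8 passed as higher, none passed as lower, and 24 had a log2 fold change above 0. Ccl21b (chr4:42173120-42256825) had 2.31, 3.54 and 0.993 CPM in high-dose libraries 1, 2 and 3, against 0.0148, 0.0492 and 0.0445 CPM in the controls. These are 413 reads in the high-dose libraries and 7 in the controls, a depth-adjusted ratio of 64.7 (exact 95% interval 31.1 to 162.0, which covers counting error only). Every high-dose library lay far above every control, and high-dose 3 was the lowest of its group.

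Predicted genes with the Ccl21b sequence had similar counts. Gm10591 had 451 reads in the high-dose libraries and 7 in the controls, Gm13304 had 408 and 8, and Gm21541 had 329 and 6. All 353 words of 50 bases in the Ccl21b transcript also occur in each of these 3 transcripts, and how shared reads were counted is not given in the sources used here, so they cannot be counted as separate findings. Gm29804 had 11.4, 9.39 and 3.90 CPM in high-dose libraries, against 0.252, 0.0985 and 0.223 CPM in controls. The log2 fold change of Gm29804 was 5.41 ± 0.58 (SE, edgeR adjusted p 0.00153), and without control 2 it was 5.10 (adjusted p 0.00734). Gm5859 had 7.98, 8.26 and 3.42 CPM in high-dose libraries, against 0.742, 0.328 and 0.579 CPM in controls. High-dose 3 was again the lowest of its group in both genes, and the groups did not overlap.

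The identity of the copies reaches beyond the transcripts. The 250 bases before the start of Gm10591 (chr4:42611873-42612122, plus strand) and of Gm13304 (chr4:42114537-42114786, plus strand) are the same at every position in the RefSeq promoter table of GRCm38.p6. That stretch is shown once, since these copies are among the largest rises that passed; no base is in capitals because none differs.
Gm10591 and Gm13304: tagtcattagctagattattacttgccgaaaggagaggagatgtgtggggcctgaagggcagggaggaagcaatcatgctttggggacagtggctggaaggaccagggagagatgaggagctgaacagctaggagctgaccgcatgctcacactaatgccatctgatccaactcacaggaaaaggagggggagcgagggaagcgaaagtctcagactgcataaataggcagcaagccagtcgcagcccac

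A second run of copies stood on chromosome 14, likewise chosen after the values were seen, with its tested genes at chr14:25888403-26207025. Of 10 genes tested there, 4 passed as higher, none as lower, and all 10 had a log2 fold change above 0. Tmem254a, which encodes a small predicted membrane protein (chr14:25923298-25927672), had 19.8, 21.7 and 19.8 CPM in high-dose libraries, against 6.59, 4.81 and 8.05 CPM in controls. Its log2 fold change was 1.66 ± 0.18 (SE, edgeR adjusted p 0.00153), and without control 2 it was 1.48 (adjusted p 0.0034). The high-dose libraries lay close together, and the lowest of them was well above the highest control. Tmem254b and Tmem254c had the same log2 fold change of 1.66, and every 50-base word of either occurs in Tmem254a. Plac9a, a gene for a small secreted protein, had 4.87, 3.42 and 5.20 CPM in high-dose libraries, against 1.20, 0.394 and 1.01 CPM in controls, and its call was not kept without control 2 (adjusted p 0.11).

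The 250 bases before Tmem254a (chr14:25927673-25927922, minus strand) and Tmem254c (chr14:26067426-26067675, minus strand) are likewise the same at every position, so they are shown once, in lower case throughout.
Tmem254a and Tmem254c: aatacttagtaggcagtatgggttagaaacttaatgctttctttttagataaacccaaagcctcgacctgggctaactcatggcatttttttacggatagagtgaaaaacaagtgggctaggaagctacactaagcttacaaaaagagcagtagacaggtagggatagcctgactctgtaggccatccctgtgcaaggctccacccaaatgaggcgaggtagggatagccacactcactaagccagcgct

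Among the genes that passed, the largest falls in genes read in every library were in a pair of pseudogenes of Pisd, the mitochondrial enzyme that makes phosphatidylethanolamine. Pisd-ps1 (chr11:3124002-3131945) had 45.6, 43.6 and 51.1 CPM in high-dose libraries, against 304.4, 237.1 and 248.0 CPM in controls. Its log2 fold change was -2.49 ± 0.15 (SE, edgeR adjusted p 5.12e-06), and without control 2 it was -2.57 (adjusted p 2.12e-05). Pisd-ps2 (chr17:3064318-3084183) had 7.62, 6.67 and 7.72 CPM in high-dose libraries, against 47.8, 36.7 and 35.7 CPM in controls. The spread within each group was small beside the gap in both genes. Unlike the copies above, these pseudogenes share few sequences, since 6.28% of the 50-base words of Pisd-ps1 occur in Pisd-ps2 and 9.28% occur in Pisd. Gm33862, which neighbours Pisd-ps1 on chromosome 11, had 2.30, 1.90 and 2.12 CPM in high-dose libraries, against 6.13, 5.02 and 6.15 CPM in controls (log2 fold change -1.45, edgeR adjusted p 0.0311).

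Cyp4f41-ps, a cytochrome P450 pseudogene on chromosome 17, had 0 reads in all 3 high-dose libraries, against 15, 32 and 11 reads in controls. It was at least 17.6-fold lower in high dose, taking 3 reads over the 3 libraries as the limit that a count of 0 allows (edgeR adjusted p 0.0343). Without control 2 it did not pass (adjusted p 0.0917).

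**Figure D2:**
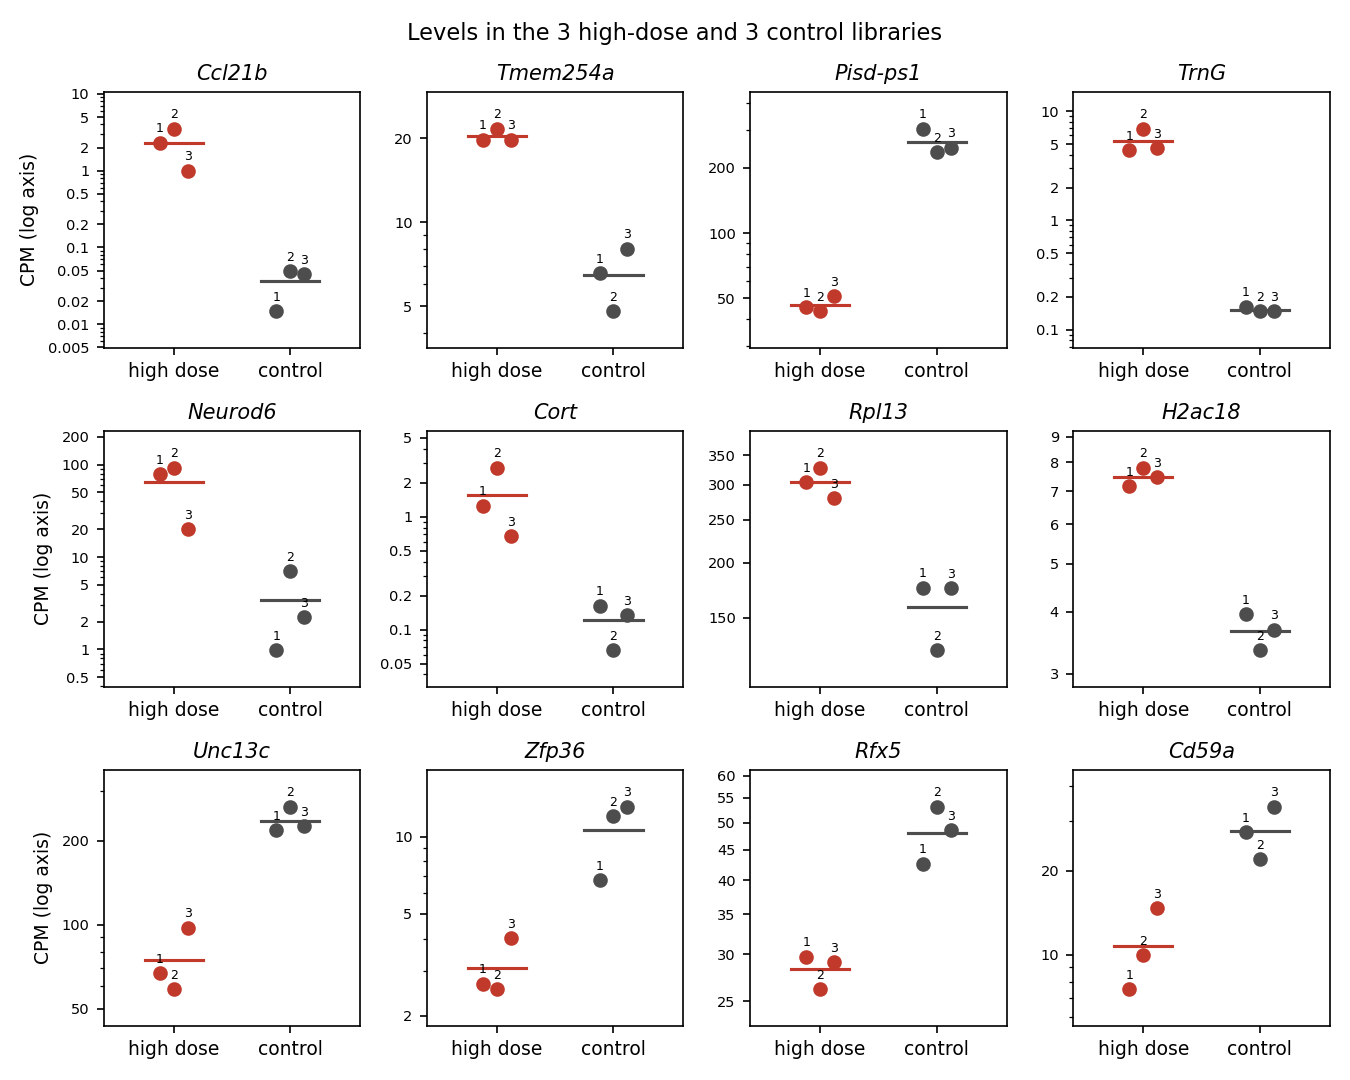
Level of 12 genes (CPM, log axis) in the 3 high-dose libraries (left) and the 3 control libraries (right). Points are libraries with their replicate number and bars are group means. The groups do not overlap in any of the 12 panels, with the widest gaps in Ccl21b and TrnG and wide spreads within the high-dose group in Neurod6 and Cort.

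The mitochondrial genome held the other change kept with each library left out in turn. TrnG, the transfer RNA for glycine, had 4.38, 6.94 and 4.59 CPM in high-dose libraries, against 0.163, 0.148 and 0.148 CPM in controls. Its log2 fold change was 5.10 ± 0.29 (SE, edgeR adjusted p 5.12e-06), and without control 2 it was 5.07 (adjusted p 4.51e-05). TrnA, the transfer RNA for alanine, had 4.58, 6.94 and 5.55 CPM in high-dose libraries, against 2.46, 1.87 and 3.00 CPM in controls. It passed with all libraries (log2 fold change 1.22 ± 0.22, edgeR adjusted p 0.0392) and not without control 2 (adjusted p 0.136).

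Of the 21 mitochondrial transfer RNAs tested, TrnG and TrnA passed, both as higher, 20 had a log2 fold change above 0, and their median was 0.51. After TrnG the next highest log2 fold change was 1.36, so TrnG stood far from the rest of its kind. Mitochondrial ribosomal RNA took 1.31%, 1.48% and 1.00% of the reads in high-dose libraries, against 0.761%, 0.244% and 0.803% in controls, with control 2 lowest and no overlap. Of the 13 protein genes of the mitochondrial genome 0 passed, at a median log2 fold change of 0.20 with all libraries and 0.00 without control 2. With all libraries, 2 of these protein genes were higher at an unadjusted p under 0.05, and DESeq2 called 1. Both transfer RNA genes are shown 5′ to 3′ as DNA, with the anticodon in capitals, because, among genes that passed, TrnG had the largest rise after Ccl21b and the predicted genes, and TrnA was the only other transfer RNA to pass. TrnG lies at MT:9391-9458 on the plus strand and TrnA at MT:5018-5086 on the minus strand.
TrnG: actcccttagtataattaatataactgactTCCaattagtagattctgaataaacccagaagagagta
TrnA: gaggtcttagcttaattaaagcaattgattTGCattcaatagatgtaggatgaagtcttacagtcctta

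Leaving out Ccl21b, TrnG and the predicted genes, the largest rise among the genes that passed was in Neurod6, a transcription factor of pyramidal neurons of cortex and hippocampus. Neurod6 had 79.3, 93.2 and 20.0 CPM in high-dose libraries, against 0.98, 7.03 and 2.23 CPM in controls. Neurod6 rose by 4.24 ± 0.75 on the log2 scale (SE, edgeR adjusted p 0.0392), and by 5.32 without control 2 (adjusted p 0.0179). High-dose 3 lay well below the other high-dose libraries, yet above every control. The call was lost without high-dose 1 or 2 or without control 1 or 3, at log2 fold changes of 4.06, 3.86, 3.78 and 3.99.

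Neurod6 was the only one of 18 cortex and hippocampus markers to pass. The list had a median log2 fold change of 0.79, against -0.013 over all genes tested, and 6 members were higher and 1 was lower at an unadjusted p under 0.05, where 9.22% and 10.8% of all genes tested were. Emx1, which patterns the cortex, had 2.83, 5.21 and 1.03 CPM in high-dose libraries, against 0.119, 0.0328 and 0.342 CPM in controls (edgeR adjusted p 0.0654). Tbr1, a factor of deep-layer neurons, had 32.1, 57.7 and 15.7 CPM in high-dose libraries, against 3.87, 0.673 and 1.38 CPM in controls (adjusted p 0.116). In bulk tissue, more cells of a type and more RNA per cell cannot be told apart. The summed level of the list was 1191.7, 1646.9 and 701.3 CPM in high-dose libraries, against 618.6, 1099.3 and 512.4 CPM in controls, so that the groups overlapped through control 2 and the median without it was 1.38.

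Cort encodes cortistatin, a peptide of cortical interneurons, and was the only one of 15 interneuron markers to pass. It had 1.25, 2.72 and 0.673 CPM in high-dose libraries, against 0.163, 0.0657 and 0.134 CPM in controls (log2 fold change 3.65 ± 0.66, edgeR adjusted p 0.0392). The groups did not overlap, but the call was lost without control 2 (adjusted p 0.147). Cck, another peptide of cortical neurons, had 117.5, 129.7 and 59.8 CPM in high-dose libraries, against 23.4, 17.4 and 43.6 CPM in controls, and did not pass (adjusted p 0.0698). The list of 15 did not rise as a whole. At an unadjusted p under 0.05, 4 members were higher and 2 lower, against 9.22% and 10.8% of all genes tested. Its median log2 fold change was 0.34. The summed level was 1594.4 to 1704.1 CPM in high-dose libraries and 1601.1 to 2499.2 CPM in controls, so the groups overlapped.

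Markers of other regions also differed between the groups without passing the test. The summed level of 16 hypothalamic markers was 617.2, 473.9 and 352.6 CPM in high-dose libraries, against 143.0, 17.9 and 95.8 CPM in controls, with no overlap. None of the 16 passed in edgeR, 8 were higher at an unadjusted p under 0.05 (5 without control 2), and DESeq2 called 3 higher. Over all genes tested, 9.22% were higher at that unadjusted p. The level varied widely without the inhibitor. It was 863.8, 386.3 and 258.7 CPM in MPTP libraries 1, 2 and 3, and 186.9, 23.1 and 620.7 CPM in levodopa libraries 1, 2 and 3. Against MPTP the median log2 fold change of the list was -0.22, with 6 of 16 members above 0 and 1 passing as higher. Pmch, the melanin-concentrating hormone, had 291.6, 175.2 and 158.7 CPM in high-dose libraries, against 0.683, 0.0985 and 5.27 CPM in controls (adjusted p 0.149). Hcrt, which encodes the orexins, had 47.5, 21.2 and 28.8 CPM in high-dose libraries, against 0.0594, 0.0328 and 0.208 CPM in controls (adjusted p 0.115). Both peptides come from the lateral hypothalamus, and the part of tissue composition in the results above was not tested.

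The cerebellar list of 20 markers, 19 of them tested, summed to 1175.2, 1009.2 and 1178.7 CPM in high-dose libraries, against 1442.3, 13464.1 and 1143.1 CPM in controls. Its median log2 fold change was -2.64 with control 2 and -0.12 without it, and no member passed in either fit, while DESeq2 called 4 lower with all libraries. The thalamus and midbrain list summed to 1033.4, 591.0 and 971.4 CPM in high-dose libraries, against 1082.3, 1074.6 and 1687.4 CPM in controls. With all libraries its median log2 fold change was -0.61, 2 of 16 members were lower at an unadjusted p under 0.05 and none passed, and without control 2 the median was -1.02 and 7 were lower. Without control 2 and levodopa 2, 1 member passed as lower. The summed levels did not overlap, although high-dose 1 and controls 1 and 2 lay close together. The striatal list ranged from 1481.8 to 3029.0 CPM in high-dose libraries and from 765.6 to 5374.8 CPM in controls, and the groups overlapped.

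**Figure D3:**
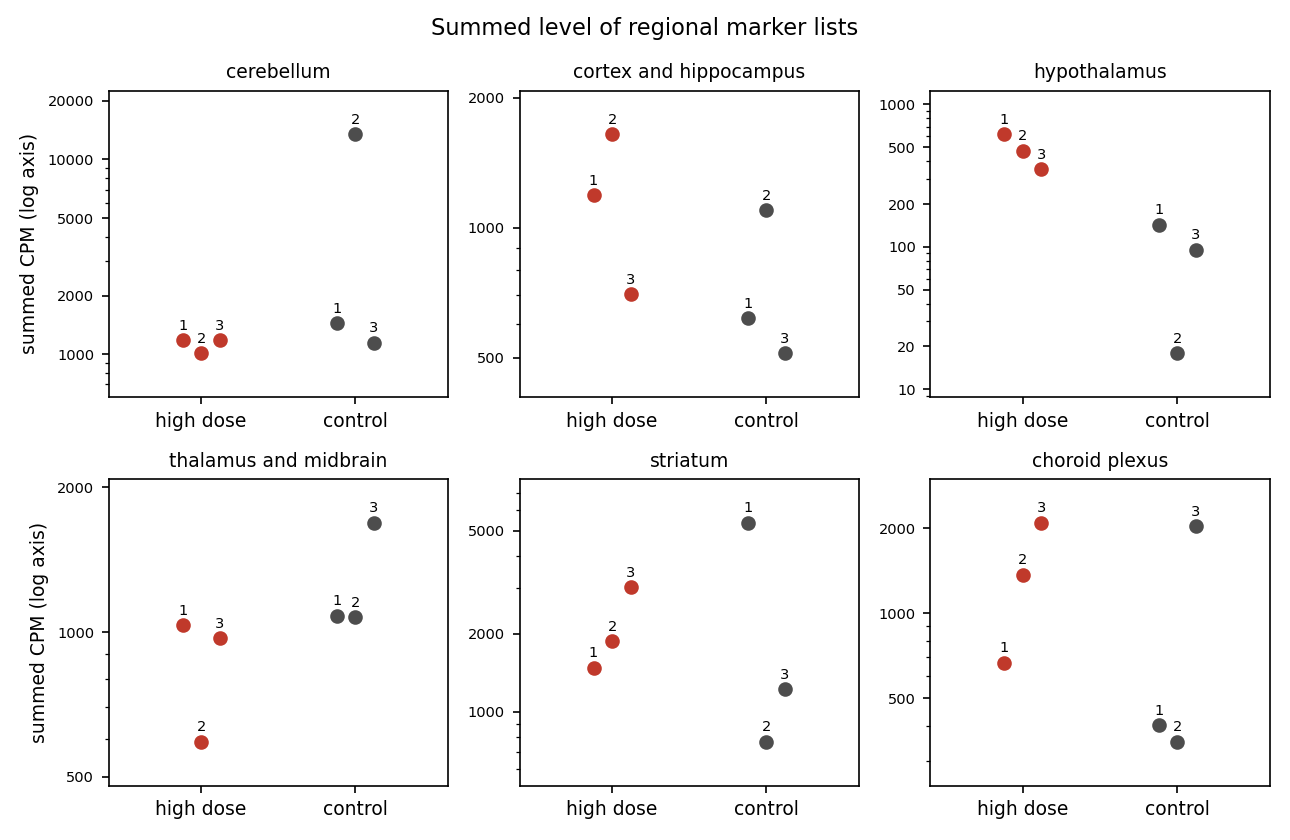
Summed CPM (log axis) of 6 regional marker lists in the 3 high-dose libraries (left) and the 3 control libraries (right), with replicate numbers beside the points. Control 2 reaches 13464 CPM of cerebellar markers, and hypothalamic markers are at 352.6 CPM or more in high dose and at 143.0 CPM or less in controls.

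Genes of the translation machinery made up a further group of rises. Ribosomal protein genes encode the protein part of the cytosolic ribosome, and 2 of the 57 tested passed, both as higher. Rpl13 had 304.0, 328.5 and 280.1 CPM in high-dose libraries, against 175.5, 126.7 and 174.9 CPM in controls (log2 fold change 0.94 ± 0.17, edgeR adjusted p 0.0392). Rpl36 had 68.5, 82.6 and 86.0 CPM in high-dose libraries, against 38.4, 33.7 and 41.6 CPM in controls (log2 fold change 1.06 ± 0.20, adjusted p 0.047). The groups were apart in both genes, and neither passed without control 2 (adjusted p 0.132 and 0.168). Nor did either pass with the length trend described below removed, at log2 fold changes of 0.80 and 0.71.

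The other ribosomal protein genes leaned the same way. At an unadjusted p under 0.05, 51 of 57 were higher and none was lower, at a median log2 fold change of 0.62, and DESeq2 called 28. Without control 2, 38 were higher and none was lower at an unadjusted p under 0.05, where 6.4% and 5.83% of all genes tested were, and the median was 0.47. Mrps24 of the mitochondrial ribosome rose by a log2 fold change of 0.67, Fbl, the methyltransferase fibrillarin of ribosomal RNA processing, by 0.64, and Eif3f of translation initiation by 0.60 (edgeR adjusted p 0.0392, 0.0297 and 0.0392). With the length trend removed, the log2 fold changes of Mrps24, Fbl and Eif3f were weaker, at 0.39, 0.55 and 0.51.

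Nuclear genes of the respiratory chain leaned upwards without passing. Of 36 complex I genes 0 passed, 22 were higher at an unadjusted p under 0.05 (14 without control 2), none was lower, DESeq2 called 1, and the median log2 fold change was 0.33. Of 38 genes of complexes II to V 0 passed in edgeR, 19 were higher at an unadjusted p under 0.05 and DESeq2 called 12, at the same median of 0.33. Over all genes tested, 9.22% were higher at that unadjusted p, and 6.4% without control 2. In both lists every high-dose library had a larger summed level than every control, from 2950.0 to 3357.2 CPM against 2392.4 to 2904.3 CPM for complex I. Removing the length trend described below brought both medians to 0.08.

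H2ac18, a core histone gene, had 7.17, 7.81 and 7.47 CPM in high-dose libraries, against 3.96, 3.35 and 3.68 CPM in controls (log2 fold change 1.03 ± 0.15, edgeR adjusted p 0.0144). Its near copy H2ac19 had the same fold change, and 89.2% of the 50-base words of one and all those of the other occur in both. These were the 2 of 8 core histone genes tested that passed. Arpc3, a subunit of the Arp2/3 actin-branching complex, had 108.6, 124.3 and 99.0 CPM in high-dose libraries, against 66.0, 50.5 and 66.7 CPM in controls (log2 fold change 0.86, adjusted p 0.0193). Pfn1, the actin-binding profilin, had 74.0, 77.3 and 76.2 CPM in high-dose libraries, against 49.6, 59.1 and 52.1 CPM in controls (log2 fold change 0.50, adjusted p 0.0473). In none of these genes did the groups overlap, but none of the 4 passed without control 2 or with the length trend described below removed, where the log2 fold change was 0.68 for H2ac18 and 0.57 for Arpc3.

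Further rises were smaller in reads or in fold. Fabp3, a fatty acid carrier, rose by a log2 fold change of 0.72, Atg101, a part of the complex that starts autophagy, by 0.72, and Dapk3, a death-associated kinase, by 0.54 (edgeR adjusted p 0.039, 0.0343 and 0.0283). Rlbp1, a retinaldehyde-binding protein, rose by 1.04 and S100a4, a calcium-binding protein, by 1.64 (adjusted p 0.0351 and 0.0392). Scand1, Zfp771 and Prss35 rose by 1.80, 1.14 and 1.23. Ccbe1, which is needed for lymphatic vessels, had 13.2, 9.95 and 4.80 CPM in high-dose libraries, against 2.14, 1.61 and 2.82 CPM in controls (log2 fold change 2.09, adjusted p 0.0392). None of these 9 genes passed without control 2.

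The direction of the calls followed transcript length. Among called genes with a known length, the median of the longest transcript was 1434 bases for the 40 that were higher and 7330 bases for the 34 that were lower, against 3013 bases over the genes tested. Over all 19008 tested genes with a length, the median log2 fold change was 0.312 below 1000 bases, 0.173 from 1000 to below 2000, 0.024 from 2000 to below 4000, -0.152 from 4000 to below 8000 and -0.333 at 8000 or more. Without control 2 the first and last of these medians were 0.249 and -0.256. Spearman's correlation of length and fold change across genes was -0.312, and genes are not independent replicates.

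The same trend stood in the read shares of the 6 compared libraries. Genes under 1000 bases took 2.71%, 3.12% and 2.89% of the reads in high-dose libraries, against 2.14%, 1.82% and 2.31% in controls. Genes of 8000 bases or more took 10.6%, 9.93% and 10.2% in high-dose libraries, against 12.6%, 14.4% and 11.6% in controls. Neither share overlapped between the groups, with control 2 farthest from the high-dose libraries in both. Low-dose libraries had 2.56% to 2.96% and 9.94% to 11.2%, and MPTP and levodopa libraries 1.78% to 2.37% and 11.8% to 14%. The inhibitor libraries also share a table layout, and whether their handling plays a part in the trend was not tested. With the trend removed from each library, 14 genes were higher and 12 were lower, 0.0736%, 0.0631% and together 0.137% of 19021 genes tested, and 25 of these 26 were among the 82. Of the 82, only the 74 with a known length could enter that fit, so TrnG and some predicted genes were not tested in it. With the trend removed, 0 of 57 ribosomal protein genes passed and their median log2 fold change fell to 0.37. At an unadjusted p under 0.05, 37 of them were higher and none was lower, against 6.7% and 8.47% of all genes tested.

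**Figure D4:**
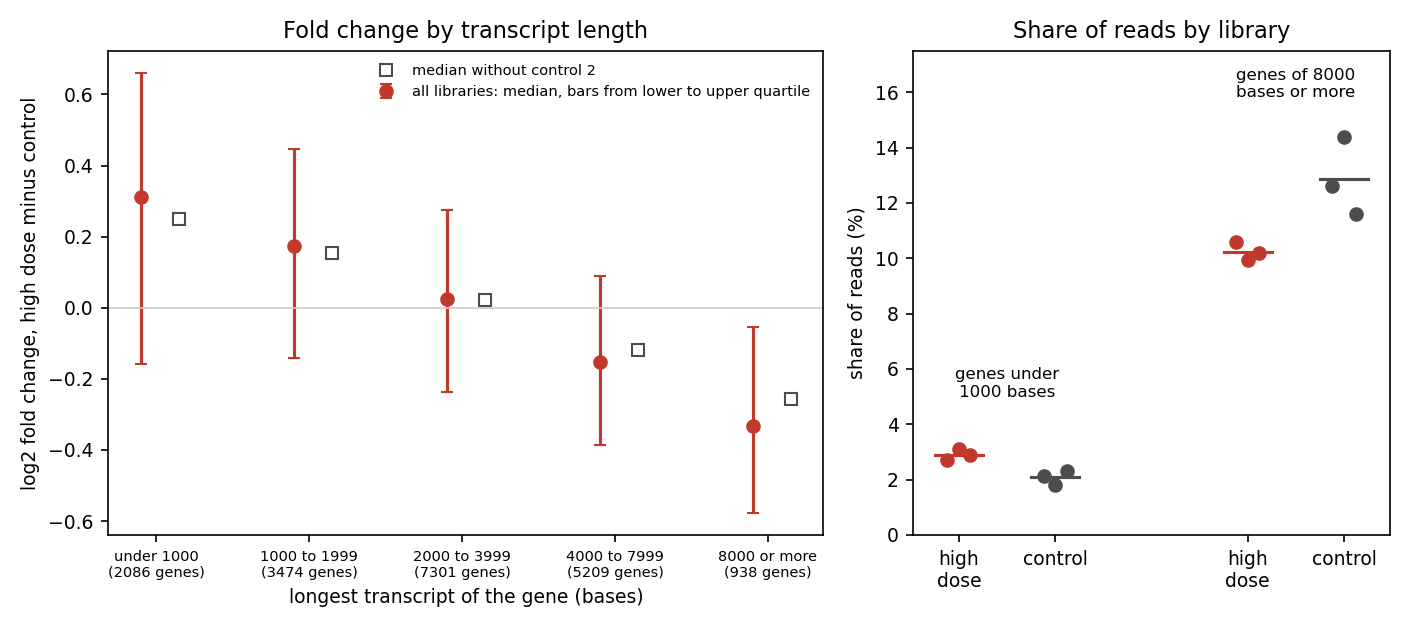
Left, median log2 fold change (high dose minus control) of tested genes in 5 classes of longest transcript length, with bars from the lower to the upper quartile and open squares for the median without control 2. Right, share of reads (%) from genes under 1000 bases and from genes of 8000 bases or more in each high-dose and control library, with bars at the group means; medians run from 0.312 for the shortest class to -0.333 for the longest.

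Unc13c, a protein that primes synaptic vesicles and is known from cerebellar granule cells, had 67.1, 58.7 and 97.6 CPM in high-dose libraries, against 217.8, 264.9 and 224.7 CPM in controls. The log2 fold change was -1.66 ± 0.27 (SE, edgeR adjusted p 0.0283), and control 2 was not apart from the other controls.

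Dst, the linker dystonin, had 489.5, 386.7 and 514.7 CPM in high-dose libraries, against 681.9, 840.7 and 737.1 CPM in controls (log2 fold change -0.70, edgeR adjusted p 0.0473). Ank3, the ankyrin of the axon initial segment, fell by 0.64, and Utrn, the dystrophin relative utrophin, by 0.85 (adjusted p 0.0483 and 0.0286). Ttbk2, a kinase needed to build cilia, fell by 0.82, and the centrosome and cilium proteins Cep290 and Cep135 fell by 0.61 and 0.66 (adjusted p 0.0392, 0.0488 and 0.0483). The groups did not overlap in these 6 genes, whose transcripts reach 5629 to 23279 bases, and with the length trend removed none of them passed (adjusted p 0.12 to 0.431).

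Msi2, an RNA-binding protein of neural progenitors, fell by 0.74, Dcp2, which removes messenger RNA caps, by 0.68, and Pbrm1, a subunit of a chromatin remodelling complex, by 0.53 on the log2 scale (edgeR adjusted p 0.0392, 0.0455 and 0.0412). Rfx5, a factor of MHC class II promoters, had 29.7, 26.2 and 29.1 CPM in high-dose libraries, against 42.6, 53.2 and 48.5 CPM in controls (log2 fold change -0.76, adjusted p 0.0144). Pik3c3, the lipid kinase of autophagy and endosomes, had 55.2, 64.6 and 56.4 CPM in high-dose libraries, against 82.9, 81.9 and 91.3 CPM in controls (log2 fold change -0.54, adjusted p 0.0343). Rfx5 and Pik3c3 passed with the length trend removed as well (adjusted p 0.0239 for both), and neither passed without control 2 (0.0638 and 0.0684).

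Zfp36, a protein that speeds the decay of cytokine messenger RNAs, had 2.67, 2.54 and 4.02 CPM in high-dose libraries, against 6.75, 12.0 and 13.1 CPM in controls. Its log2 fold change was -1.79 ± 0.32 (SE, edgeR adjusted p 0.0392), with no overlap and control 1 lowest of the controls. Klf4, a transcription factor of vessels and of the early response to stimuli, had 2.38, 1.92 and 2.51 CPM in high-dose libraries, against 4.33, 5.73 and 6.49 CPM in controls (log2 fold change -1.28 ± 0.24, adjusted p 0.047). Cd59a, which blocks the membrane attack complex of complement, had 7.53, 9.98 and 14.7 CPM in high-dose libraries, against 27.5, 22.0 and 33.9 CPM in controls. Cd59a fell by 1.37 on the log2 scale (adjusted p 0.0301) and passed without control 2 too (log2 fold change -1.52, adjusted p 0.0297), while Zfp36 and Klf4 did not (0.11 and 0.135).

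Klf4 was the only one of 24 immediate early genes to pass. The list otherwise leaned the other way, with a median log2 fold change of 0.66 with all libraries and 0.66 without control 2. At an unadjusted p under 0.05, 10 members were higher and 3 lower, against 9.22% and 10.8% of all genes tested. DESeq2 called 7 higher and 2 lower. Arc, a synaptic effector of neuronal activity, had 105.5, 191.8 and 103.9 CPM in high-dose libraries, against 72.6, 16.8 and 25.2 CPM in controls, and did not pass (edgeR adjusted p 0.0926). Arc passed without control 1, at a log2 fold change of 2.67. That library held its highest control level, so leaving it out raises the fold change by construction and adds no support. Dusp6, a phosphatase that damps ERK signalling, had 38.3, 57.3 and 32.8 CPM in high-dose libraries, against 23.9, 15.2 and 22.4 CPM in controls (adjusted p 0.0654).

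Thsd7a, an adhesion protein of endothelial and other cells, had 38.0, 30.3 and 43.7 CPM in high-dose libraries, against 110.6, 80.4 and 92.7 CPM in controls (log2 fold change -1.34 ± 0.25, edgeR adjusted p 0.0395). Itga1, a collagen-binding integrin subunit, had 3.21, 2.25 and 2.59 CPM in high-dose libraries, against 5.64, 7.68 and 5.94 CPM in controls (log2 fold change -1.26, adjusted p 0.0392). Akap12, a scaffold of protein kinase A, had 40.7, 31.6 and 44.5 CPM in high-dose libraries, against 63.6, 102.0 and 92.3 CPM in controls (log2 fold change -1.14, adjusted p 0.0343). The groups did not overlap in any of the 3, and none passed without control 2.

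Of 20 endothelial markers 0 passed in edgeR, 6 were lower and none was higher at an unadjusted p under 0.05, and DESeq2 called 5 lower. Their median log2 fold change was -0.39, and -0.47 without control 2. Over all genes tested, 9.22% were higher and 10.8% were lower at that unadjusted p. Abcb1a, the efflux pump P-glycoprotein of the blood-brain barrier, had 14.4, 9.81 and 12.8 CPM in high-dose libraries, against 23.1, 26.3 and 32.9 CPM in controls (edgeR adjusted p 0.0686). The summed endothelial level was 380.3, 325.0 and 369.2 CPM in high-dose libraries, against 419.9, 414.5 and 509.8 CPM in controls. The groups did not overlap, which was also so for 27.4% of the single genes tested. Of 12 pericyte and smooth muscle markers 0 passed in edgeR, 5 were lower at an unadjusted p under 0.05 (3 without control 2), and DESeq2 called 3 lower. Their summed level was 157.4 to 164.4 CPM in high-dose libraries and 191.0 to 205.2 CPM in controls, again with no overlap.

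The genes the study is about did not pass. Nr4a2 had 17, 23.5 and 14 CPM in high-dose libraries, against 4.56, 27.6 and 11.9 CPM in controls, and did not pass (log2 fold change 0.31 ± 0.56, SE, edgeR adjusted p 0.794). The groups overlapped through control 2, and without it the log2 fold change was 1.14 (adjusted p 0.411). Btk had 0.978, 0.634 and 0.909 CPM in high-dose libraries, against 0.965, 0.328 and 0.95 CPM in controls, and a log2 difference of 0.17 ± 0.42 (adjusted p 0.859).

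Genes of dopamine synthesis and transport varied more within the groups than between them. Slc6a3, the dopamine transporter that also takes up the MPTP product, had 0.896, 20.3 and 78.0 CPM in high-dose libraries, against 5.11, 0 and 55.3 CPM in controls (log2 fold change 0.72 ± 2.01, edgeR adjusted p 0.873). Library 3 was the highest of both groups, and control 2 had no read of the gene, which allows up to 0.0474 CPM. Th, which makes the precursor of dopamine, had 9.87, 13 and 40.7 CPM in high-dose libraries, against 5.86, 7.42 and 27.9 CPM in controls (adjusted p 0.74). For Ddc, the enzyme of the last step to dopamine, the log2 fold change was 0.42 ± 0.87, and for Slc18a2, which loads dopamine into vesicles, it was 0.41 ± 1.31 (SE). Of 22 dopamine neuron markers 0 passed in edgeR, and DESeq2 called 1 lower. At an unadjusted p under 0.05, 2 were lower and none was higher, where 10.8% and 9.22% of all genes tested were. With standard errors of this size, large differences in either direction could not be told from none.

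Lists of microglia and immune signalling had no member that passed in edgeR with all libraries. Of 20 homeostatic microglia genes, 0 were past an unadjusted p of 0.05 in either direction and DESeq2 called 0, while their summed level was 1302.4, 1420.4 and 1330.9 CPM in high-dose libraries, against 1230.1, 414.1 and 1185.8 CPM in controls. Control 2 had the lowest level, and the list's median log2 fold change was 0.32 with it and -0.07 without it. Of 18 activated microglia genes, 1 was higher and 1 was lower at an unadjusted p under 0.05, as in DESeq2. Over all genes tested, 9.22% were higher and 10.8% were lower at that unadjusted p. Apoe, the lipid carrier of astrocytes and reactive microglia, had 1736.5, 1596.1 and 1642.7 CPM in high-dose libraries, against 1035.1, 934.9 and 1162.3 CPM in controls. The groups were apart in Apoe, yet it did not pass (log2 fold change 0.67 ± 0.14, edgeR adjusted p 0.0691). Apoe passed with DESeq2, with a filter of 5 CPM in 3 libraries and without control 2 and levodopa 2. The summed activated microglia level ran from 2746.1 to 2805.1 CPM in high-dose libraries and from 1990.2 to 2416.1 CPM in controls, with no overlap. Apoe made up the largest part of this sum, so the sum does not show a shift of the other members. The median log2 fold change of the list was 0.13.

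Of 18 genes of BTK signalling, 1 was higher and 2 were lower at an unadjusted p under 0.05, and DESeq2 called 0. Over all genes tested, 9.22% were higher and 10.8% were lower at that p, so the list counts of this paragraph are near or below those shares. Blnk, the adaptor that BTK binds after B-cell receptor activation, had 2.69, 3.09 and 2.12 CPM in high-dose libraries, against 1.75, 0.87 and 1.59 CPM in controls (edgeR adjusted p 0.219). Bmx, a kinase of the same family, had 0.635, 1.10 and 0.707 CPM in high-dose libraries, against 1.08, 1.31 and 2.18 CPM in controls (adjusted p 0.194). Of 14 inflammation genes 1 was lower, and of 22 interferon response genes 2 were lower, at an unadjusted p under 0.05, with none higher and 0 called by DESeq2 in both lists. The medians were -0.29 and -0.14, and without control 2 they were -0.57 and -0.20.

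**Figure D5:**
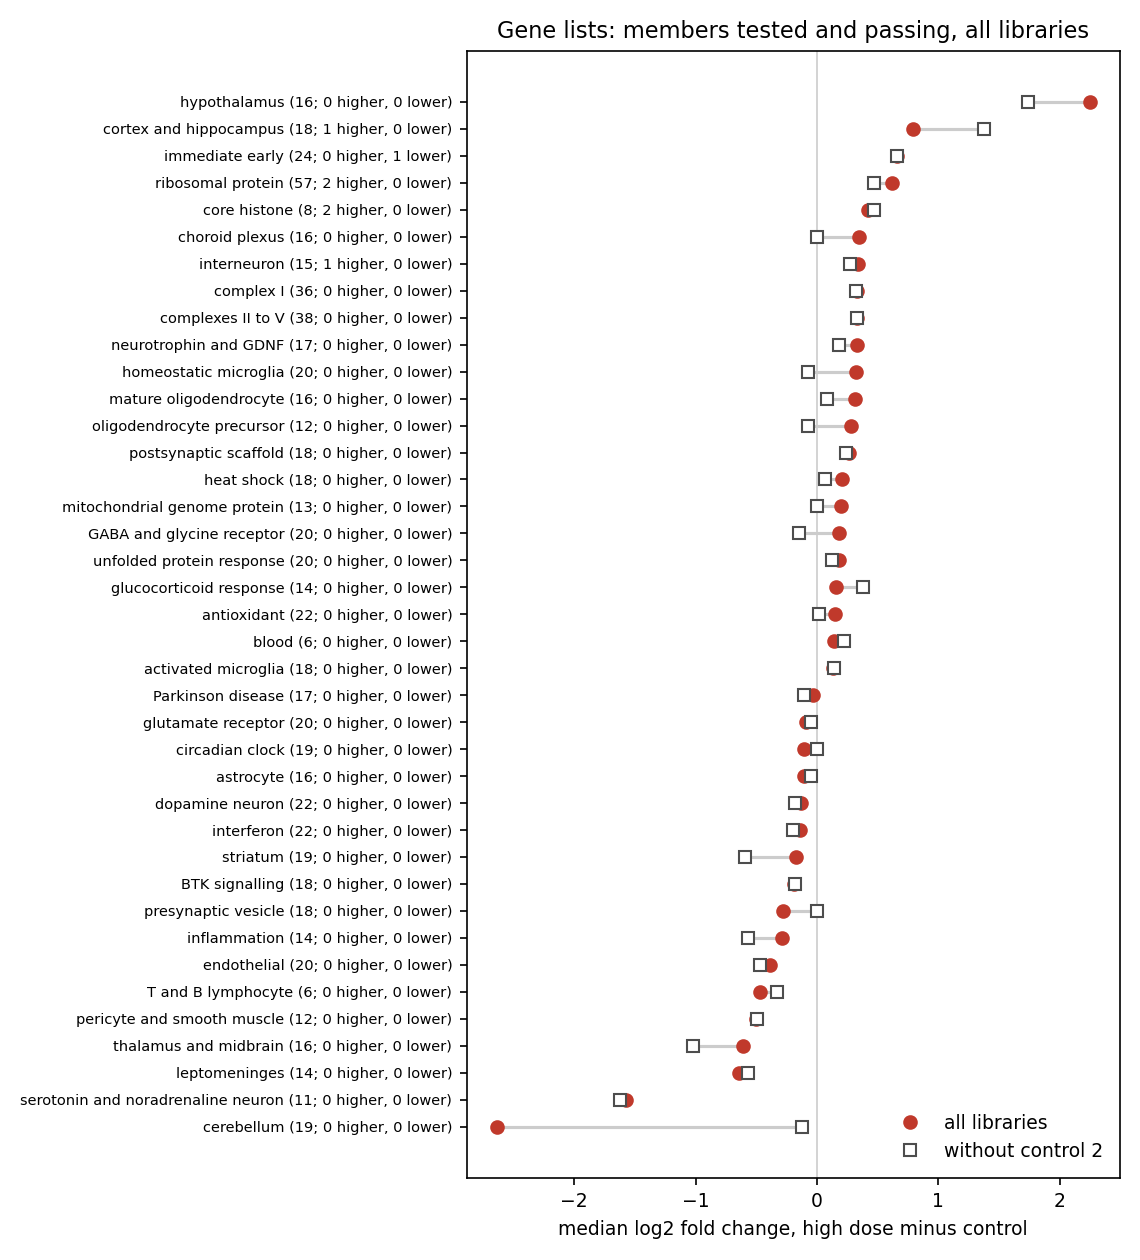
Median log2 fold change (high dose minus control) of 39 gene lists with at least 5 genes tested, with all libraries (filled) and without control 2 (open). Labels give the number of genes tested and the number that passed as higher or lower; 34 of these lists have no member that passed, and the cerebellum list moves farthest between the 2 fits, from -2.64 to -0.12.

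Set directly against the low dose, the high dose showed no gene past the threshold in edgeR. Of 21821 genes 0 passed (0%) in edgeR, 486 were under an unadjusted p of 0.05 (2.23%), and DESeq2 called 1. Pisd-ps1 had a log2 fold change of -0.80 and TrnG one of 0.20 between the doses. Ccl21b had 2.31, 3.54 and 0.993 CPM in high-dose libraries, against 4.55, 2.39 and 8.67 CPM in low-dose libraries, and the groups overlapped. A p that misses the threshold does not show that the doses act alike.

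Set against MPTP alone, the high dose had 236 genes higher and 193 lower of 21821, 1.08%, 0.884% and together 1.97%. These 429 calls fell to between 18 and 150 with 1 library left out, with 18 without MPTP 2 and 22 without high-dose 2, and the list counts given here are from the fit of all libraries. Both comparisons use the same high-dose libraries, so they do not count as separate evidence. TrnG had 4.38, 6.94 and 4.59 CPM in high-dose libraries, against 0.0878, 0.117 and 0.163 CPM in MPTP libraries (log2 fold change 5.41, edgeR adjusted p 3.96e-06). Tmem254a had 19.8, 21.7 and 19.8 CPM in high-dose libraries, against 8.56, 8.59 and 7.79 CPM in MPTP libraries (log2 fold change 1.30, adjusted p 0.0106). Abcb1a passed here, with a log2 fold change of -1.74 (adjusted p 0.0114), and was one of 9 of 20 endothelial genes that were lower than in MPTP libraries, while none was higher. Arc passed here too, with a log2 fold change of 2.74 (adjusted p 0.0233), among 8 of 24 immediate early genes that were higher, with 1 lower.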

How the data were processed

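Whole-number read counts per gene symbol were deposited by the authors, 1 table per library with 45777 symbols. The build was GRCm38 and the tools named were HISAT2 2.1.0, StringTie 2.1.3b, Trimmomatic and bcl2fastq 2.20.0, per the submitters' processing notes. Not given in the sources used here were the annotation, strand setting and treatment of shared reads, so overlapping genes and gene copies are uncertain. Groups came from sample titles. All 15 libraries were fitted at once with edgeR 4.0.16 (R 4.3.3, TMM, filterByExpr, quasi-likelihood test without covariates, Benjamini-Hochberg adjustment at 0.05). The test was also run on simulated counts with a common mean per gene, apart from genes changed on purpose. These held no regional or length differences between libraries, so that check does not cover them. Levels are TMM-scaled CPM; 3 reads correspond to 0.0440 to 0.0516 CPM. No libraries of a group agreed within sampling noise. Transcript lengths and coordinates came from GENCODE and RefSeq tables of GRCm38. The length trend was removed with lowess offsets (span 0.3) per library.

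Named genes were the 15 with the largest rise and fall that passed, had a mean of at least 1 CPM and did not overlap, leaving out predicted and mitochondrial genes, then 10 each without control 2, 6 study genes and up to 4 per list; a selection is printed, and some withheld items are not reported here. The comparison, the 40 lists (767 of 774 entries matched) and the tests were chosen with earlier results of these data known. Alternatives were RLE and upper-quartile scaling, DESeq2 1.42.0, other filters, fits of the compared groups, a replicate block and left-out libraries.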

Additional observations from a re-analysis of the deposited data

How the results depend on the processing

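Genes higher and lower in high dose against control were 47 and 35. They were 714 and 747 with DESeq2, 45 and 34 with RLE scaling, 67 and 55 with upper-quartile scaling, 23 and 12 with no filter, 124 and 132 with a filter of 5 CPM in 3 libraries, 1 and 2 in a fit of the compared groups, 27 and 19 with the replicate number as a block, 85 and 80 without control 2 and levodopa 2, and 14 and 12 with the length trend removed, an alternative chosen after seeing the data. The fit with the length trend removed held only genes with a known length. With 1 high-dose or control library left out, the genes higher and lower ran from 13 to 43 and from 2 to 22. Deviations of high-dose and control libraries with the same number correlated at -0.0328, 0.0196 and 0.0819, and those with different numbers at -0.0817 to 0.0634. The main fit used no pairing, and these weak correlations do not show that libraries with the same number share no handling.

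Without control 2, the 13 higher and 4 lower genes became 285 and 214 with DESeq2, 7 higher with a filter of 5 CPM, 6 and 9 in a fit of the compared groups, and 7 and 2 with the replicate block. High against low dose gave 1 call with DESeq2 and 0 in edgeR. High dose against MPTP gave 429 calls, 1742 with DESeq2, 214 with no filter, 3560 in a fit of the compared groups, 226 with the replicate block, 2478 without control 2 and levodopa 2, 247 with the length trend removed, and 18 to 150 with 1 library left out. The cause of these differences was not tested.

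No named gene that passed changed direction under any alternative. Among study genes, the log2 fold changes with 1 library left out ran from -0.13 to 1.14 for Nr4a2, from -0.19 to 0.39 for Btk, from -0.25 to 1.66 for Th, from -0.91 to 3.67 for Slc6a3, from -0.07 to 1.76 for Ddc and from -0.28 to 2.57 for Slc18a2. That of Nr4a2 was below 0 without control 1, that of Btk was -0.19 without control 2, with or without levodopa 2, those of Ddc and Slc18a2 were -0.07 and -0.16 there, and those of Th, Slc6a3, Ddc and Slc18a2 were below 0 without high-dose 3 (-0.03 for Ddc). With 3 libraries a group and regional differences between them, genes that vary by region cannot be read closely.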

Other observations

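Of 16 mature oligodendrocyte genes 0 passed in edgeR, 0 were past an unadjusted p of 0.05 and DESeq2 called 0, at summed levels of 14308.9 to 19538.6 CPM in high-dose libraries and 7475.2 to 18503.0 CPM in controls, with control 2 lowest. Of 16 astrocyte genes 0 passed in edgeR, 2 were lower at an unadjusted p under 0.05 and DESeq2 called 1 lower. Over all genes tested, 9.22% were higher and 10.8% were lower at that unadjusted p. Of 14 glucocorticoid response genes 0 passed in edgeR, 3 were higher at an unadjusted p under 0.05, and 3 were higher in DESeq2. Every high-dose library, from 664.4 to 786.9 CPM, had a larger summed level than every control, from 603.0 to 662.7 CPM. Of 18 postsynaptic scaffold genes 0 passed in edgeR, 3 were higher at an unadjusted p under 0.05 and DESeq2 called 1 higher.

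Of 11 serotonin and noradrenaline neuron markers 0 passed in edgeR, 1 was lower at an unadjusted p under 0.05, DESeq2 called 0, and the median log2 fold change was -1.57, or -1.62 without control 2. Of 16 choroid plexus markers 0 passed in edgeR, 1 was lower at an unadjusted p under 0.05, and 0 passed in DESeq2. Their summed level was 669.1, 1369.9 and 2092.3 CPM in high-dose libraries, against 402.4, 351.0 and 2030.4 CPM in controls, so the groups overlapped. Haemoglobin and other blood genes summed to 97.8 to 369.1 CPM in high-dose libraries and 115.3 to 207.3 CPM in controls.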
